A study of Mus musculus with 8 samples.

Results

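Kit, the endothelin receptors, the ERBB receptors, Met and Igf1r receive growth and survival signals for pigment cells, and Kitl, Edn1 and Edn3 encode ligands for some of them. These 10 genes were picked by name, not by a threshold on measured values, and looked up by gene symbol among the 22180 genes of the array table. Earlier results of these data were known when the genes were picked, so shares over all genes are not an independent yardstick for them. A probe set was found for 9 of the 10. Ednra, the endothelin A receptor gene, had no probe set under its name here and was not analysed.

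The values come from 8 arrays of cells sorted from dissociated mouse skin. All mice carried a Cre recombinase transgene driven by the tyrosinase promoter (Tyr::Cre) and the Z/EG reporter, on a mixed C57Bl/6 and 129/Sv background, and the cells taken were positive for green fluorescent protein and negative for p75. P4_WT (2 arrays) holds melanoblasts, the precursors of pigment cells, from mice of 4 days with B-raf +/+ and C-raf +/+. P21_WT (2 arrays) holds melanocyte stem cells of the same genotype from mice of 21 days. P21_KO (4 arrays) holds melanocyte stem cells from mice of 21 days with B-raf fl/fl and C-raf fl/fl, in which only cells with an active tyrosinase promoter should lose the floxed alleles. The labels call the arrays biological replicates. However, 3 P21_KO arrays, replicates 2, 3 and 4, share a label number whose meaning is not stated. The p-values thus reflect only the variation among the arrays at hand and may be too small. The number of arrays limits the precision.

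Kit is a receptor tyrosine kinase that Kit ligand, the product of Kitl, activates, and it is needed for the migration and survival of melanoblasts. Ednrb is a G protein-coupled receptor for endothelins, and Edn3 is its main ligand in the developing pigment lineage. Erbb3 binds neuregulins and signals in a pair with Erbb2, Met is the receptor of hepatocyte growth factor, and Igf1r that of insulin-like growth factors. All of these receptors can feed into the RAS, RAF, MEK and ERK cascade, of which B-raf and C-raf are parts.

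Braf, a target of the knockout, read 5.99 and 7.20 in P21_WT and 5.66 to 6.57 in P21_KO on the log2 scale. Its probes may lie outside the deleted part, so these values are a weak check of the labels. The 10 melanocyte markers listed for this work each had a mean above the median of all values. Their mean log2 value was 9.26 and 9.21 in P4_WT, 8.18 and 8.22 in P21_WT, and 7.83, 7.44, 6.83 and 6.52 in P21_KO in order of replicate. The 6 measured Schwann cell and glial markers averaged 7.53 to 7.68 in P4_WT and 8.22 to 8.55 on the P21 arrays, so glial transcripts were abundant too. Both P4_WT arrays stood apart in markers of other cells. For hair shaft and inner root sheath, 8 markers averaged 6.45 and 4.43 in P4_WT but only 2.98 to 3.16 at 21 days. Of these, limma called 3 lower by age and 5 lower in P21_KO than in P4_WT. Met and Ednrb were lower in the same comparisons, and the part of hair follicle cells in those differences was not tested. P4_WT replicate 2 was also high in other lists. Its mean was 4.34 for 8 mast cell markers, 5.26 for 8 endothelial markers and 5.50 for 7 leukocyte markers, against 2.17 to 2.41, 3.01 to 3.40 and 3.10 to 3.59 elsewhere. P21_KO replicate 4 stood apart on the second principal component over all genes (48.4 against -22.5 to 10.2). Ngfr, the gene of p75, read 4.73 to 5.62 over all arrays, above the arrays' medians of 3.34 to 3.40.

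Met and Ednrb formed the clearest pattern among the 9 genes. Both were highest in melanoblasts, lower in wild-type stem cells and lowest in knockout stem cells, with no overlap between the arrays of the 3 groups. Such a stepwise order without overlap occurred in 2.12% of all genes. Kit had the same order of means with wide spread in the knockout, while Erbb2 and Erbb3 did not. Between P21_KO and P4_WT, limma called 2 of the 9 genes at an adjusted p under 0.05, Met and Ednrb, both lower. In that comparison 7.73% of all genes were called, 4.68% lower. These groups differ in age and in genotype, whose parts cannot be told apart there. In bulk samples, fewer cells of a type and less RNA per cell cannot be told apart either.

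**Figure D1:**
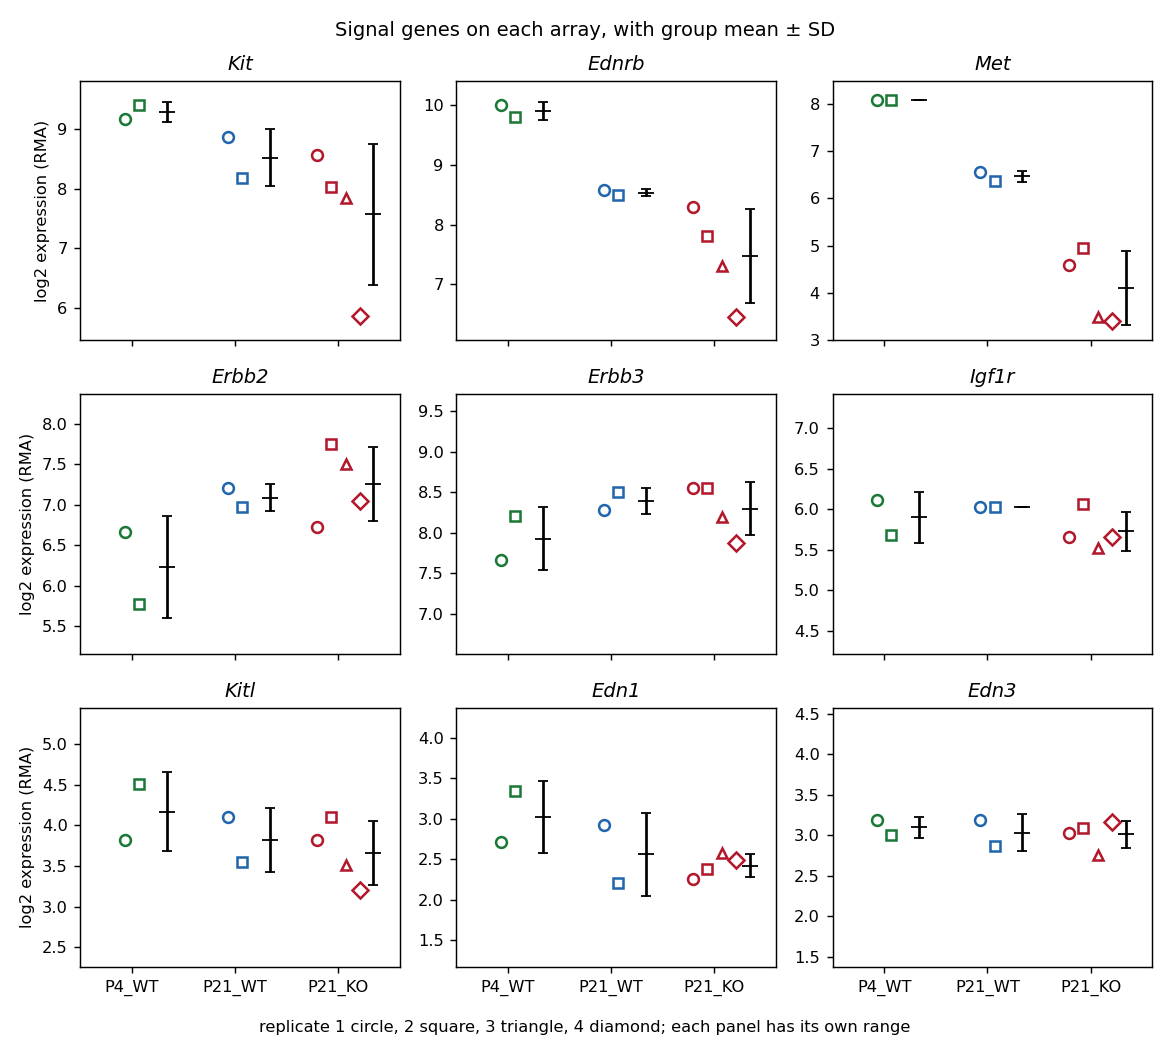
Log2 expression of the 9 measured genes on each of the 8 arrays, by group on the horizontal axis, with black bars for the group mean ± SD. Met and Ednrb step down from P4_WT to P21_WT to P21_KO without overlap, and P21_KO replicate 4 lies lowest for Kit at 5.86.

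Met, on chromosome 6, read 8.09 on both P4_WT arrays, 6.56 and 6.38 in P21_WT, and 4.59, 4.94, 3.49 and 3.39 in P21_KO in order of replicate. Every P21_KO value lay more than a log2 unit below every P21_WT value, and the groups did not overlap in any comparison. Met fell by 3.99 ± 0.43 (SE) from P4_WT to P21_KO, a 15.9-fold difference (limma adjusted p = 0.00148). The age difference, P21_WT minus P4_WT, was -1.62 ± 0.49 (SE) on the log2 scale, which did not pass limma's test over all genes (unadjusted p = 0.0103, adjusted p = 0.186). The genotype difference, P21_KO minus P21_WT, was -2.37 ± 0.43 (SE), or 5.15-fold, with a 95% confidence interval of -3.34 to -1.39. Its unadjusted p of 0.000469 ranked 30 among all 22180 genes in limma, and its adjusted p was 0.329. Without P21_KO replicate 4 the genotype difference was -2.13. The lowest P21_KO values lie near the arrays' medians of 3.34 to 3.40, where RMA compresses differences, so these folds are likely to be understated.

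Ednrb, on chromosome 14, read 10.01 and 9.80 in P4_WT, 8.58 and 8.50 in P21_WT, and 8.30, 7.81, 7.31 and 6.46 in P21_KO in order of replicate. The wild-type pairs were tight, and the P21_KO arrays were spread over 1.84 log2 units below them. The highest of these P21_KO values was on replicate 1, the array that does not share the label number. Ednrb fell by 2.44 ± 0.43 (SE) from P4_WT to P21_KO, a 5.41-fold difference (limma adjusted p = 0.0126). That call was lost without P4_WT replicate 1 (limma adjusted p = 0.0816) and without P4_WT replicate 2 (0.0619). The age difference was -1.37 ± 0.50 (SE; limma adjusted p = 0.283) and the genotype difference -1.07 ± 0.43 (SE; limma adjusted p = 0.740). The genotype interval ran from -2.05 to -0.08. Without P21_KO replicate 4 the genotype difference was -0.73.

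Kit, on chromosome 5, read 9.16 and 9.40 in P4_WT, 8.86 and 8.18 in P21_WT, and 8.56, 8.02, 7.85 and 5.86 in P21_KO in order of replicate. The P4_WT arrays were above all others. P21_KO replicate 1 lay between the P21_WT arrays, and replicate 4 was 1.98 log2 units below the next lowest array. The difference was -0.76 ± 0.74 (SE) by age and -0.95 ± 0.64 (SE) by genotype, with intervals of -2.47 to 0.94 and -2.43 to 0.53. Neither passed limma's test (adjusted p = 0.787 and 0.884). Without P21_KO replicate 4 the genotype difference was -0.38, so its size rested on that array. From P4_WT to P21_KO Kit differed by -1.71 ± 0.64 (SE; limma adjusted p = 0.173), and by -1.14 without P21_KO replicate 4. Mast cells also carry Kit, and on P4_WT replicate 2 the mast cell markers Mcpt4 and Cpa3 read 6.83 and 6.23. Cma1, Tpsb2 and Hdc were also highest on that array (5.92, 5.31 and 3.32). The other markers of the list, Fcer1a, Ms4a2 and Gata2, were not, and read 1.96, 2.36 and 2.84 there. The part of mast cells in the Kit values was not tested. The age difference of Kit was -0.64 without that array, -0.42 without P21_WT replicate 2 and -1.11 without P21_WT replicate 1.

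These 3 receptor genes had the same order of group means, and the 250 bases before a RefSeq start site of each (build GRCm38.p6, 5′ to 3′ on the gene's strand) are shown. Of the measured genes, 8 had an entry in the promoter table, which did not include Erbb3. Capitals mark matches, on either strand, to 3 motifs: CATGTG and CACGTG, E-box forms that MITF can bind, and ACAAAG, a core that SOX factors can bind.
Met, chr6:17463707-17463956, plus strand: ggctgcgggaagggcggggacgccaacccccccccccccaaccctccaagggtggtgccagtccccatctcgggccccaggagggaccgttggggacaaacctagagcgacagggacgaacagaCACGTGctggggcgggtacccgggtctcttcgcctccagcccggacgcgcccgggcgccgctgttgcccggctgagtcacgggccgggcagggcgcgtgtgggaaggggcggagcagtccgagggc
Ednrb, chr14:103843702-103843951, minus strand: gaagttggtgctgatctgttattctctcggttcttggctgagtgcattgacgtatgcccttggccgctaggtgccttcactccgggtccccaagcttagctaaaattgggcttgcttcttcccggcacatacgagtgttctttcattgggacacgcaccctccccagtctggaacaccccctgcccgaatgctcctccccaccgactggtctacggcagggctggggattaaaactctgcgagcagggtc
Kit, chr5:75574737-75574986, plus strand: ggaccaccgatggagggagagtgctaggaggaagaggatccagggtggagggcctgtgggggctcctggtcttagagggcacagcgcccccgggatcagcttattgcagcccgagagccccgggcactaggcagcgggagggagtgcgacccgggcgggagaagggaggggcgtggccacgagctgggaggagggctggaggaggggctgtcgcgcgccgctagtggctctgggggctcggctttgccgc
The Met window held 1 match, a CACGTG whose first base lies 126 bases before the start site. The windows of Ednrb and Kit held 0 matches to the 3 motifs, nor did the other Kit start site in the table, 4 bases downstream. CACGTG occurred in 6.02% of 32841 windows of the same length, CATGTG in 12.3% and ACAAAG in 16.5%. The matches describe letters and do not show a bound site.

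The 3 receptors were also set against the melanocyte markers of the same array, since the mean of those markers moved with the groups. The markers did not all move alike, with 8 lower and 2 higher by age, and 9 lower and 1 higher by genotype. Sox10 read 7.23 and 7.43 in P4_WT, 7.99 and 8.14 in P21_WT, and 8.22, 8.32, 7.79 and 8.22 in P21_KO in order of replicate. How far the mean reflects the share of melanocytes was not tested. Relative to the mean of the 10 markers, Met was at -1.17 and -1.12 in P4_WT, -1.62 and -1.84 in P21_WT, and -3.24, -2.49, -3.34 and -3.13 in P21_KO. It was thus lower in P21_KO than in P21_WT by this measure as well, with a difference of group means of -1.32 and no overlap. Among the markers themselves, Tyr was at -1.91 and Pmel at -2.04 by genotype (limma adjusted p = 0.368 and 0.565), against -2.37 for Met. Met was thus not set apart from every pigment marker. Ednrb relative to the markers averaged 0.34 ± 0.09 (SD, n = 2) in wild-type and 0.31 ± 0.26 (SD, n = 4) in knockout stem cells, a difference of -0.02. Kit averaged 0.32 ± 0.52 (SD, n = 2) and 0.41 ± 0.74 (SD, n = 4), a difference of 0.10. On this scale the genotype differences of Ednrb and Kit were smaller than the spread between arrays. By age, the differences relative to the markers were -0.59 for Met, -0.33 for Ednrb and 0.27 for Kit. The part of the marker level in the differences was not tested.

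**Figure D2:**
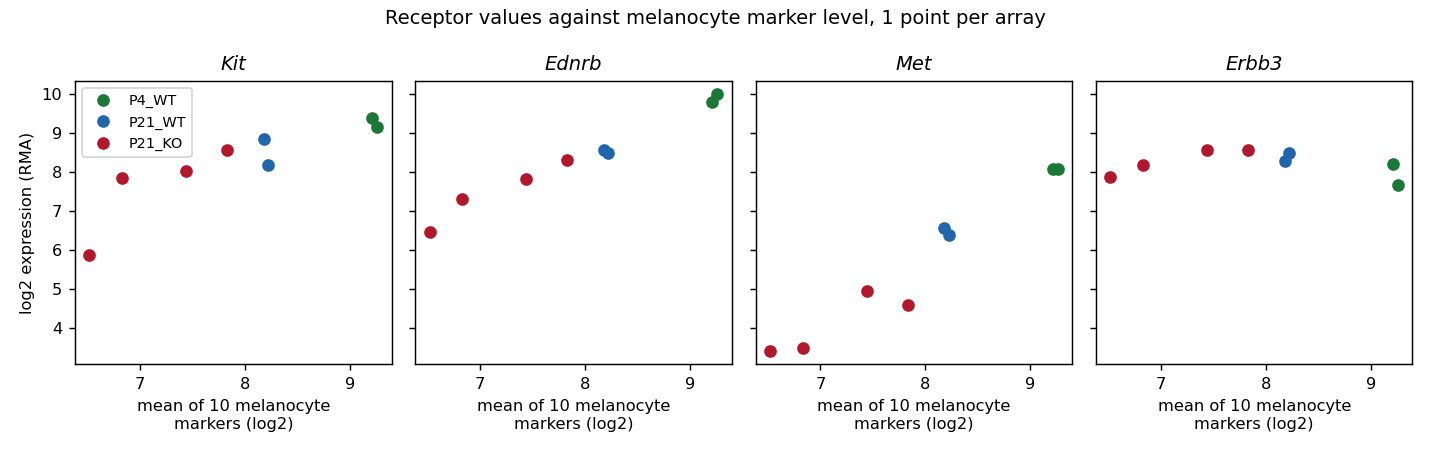
Log2 expression of Kit, Ednrb, Met and Erbb3 (vertical axis) against the mean log2 value of the 10 melanocyte markers (horizontal axis), 1 point per array, coloured by group. Ednrb tracks this mean over all 8 arrays, Met drops further in P21_KO, and Erbb3 stays between 7.66 and 8.56.

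Erbb3, on chromosome 10, read 7.66 and 8.21 in P4_WT, 8.28 and 8.50 in P21_WT, and 8.56, 8.56, 8.19 and 7.88 in P21_KO in order of replicate. The P21_KO arrays spanned the P21_WT values. The genotype difference was -0.09 ± 0.25 (SE; limma adjusted p = 0.988), with an interval of -0.66 to 0.47, and the age difference 0.46 ± 0.28 (SE; limma adjusted p = 0.598). The whole genotype interval lies above that of Met. Schwann cells carry Erbb3 and Ednrb as well, and the glial markers averaged 8.48 and 8.55 in P21_WT and 8.22 to 8.54 in P21_KO. This mean hides members that moved in opposite directions. Egr2, Mal, Mbp and Pmp22 rose by age (1.09 to 2.06 on the log2 scale; limma adjusted p = 0.00394 to 0.0330). Fabp7, a marker of immature glia, read 7.22 and 8.14 in P21_WT and 6.99, 6.13, 5.43 and 5.28 in P21_KO in order of replicate. Its genotype difference of -1.72 ± 0.47 (SE) did not pass the test (limma adjusted p = 0.572), whereas from P4_WT to P21_KO it fell by 2.94 (limma adjusted p = 0.00818). The sort for p75-negative cells would remove only those glial cells that carry p75. The share of glial cells in the Erbb3 signal was not tested.

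Erbb2, the partner of Erbb3, on chromosome 11, read 6.67 and 5.78 in P4_WT, 7.21 and 6.97 in P21_WT, and 6.73, 7.75, 7.51 and 7.05 in P21_KO in order of replicate. Both P4_WT arrays lay below all P21 arrays, the reverse of Met and Ednrb. The difference was 0.87 ± 0.38 (SE; limma adjusted p = 0.406) by age and 1.03 ± 0.33 (SE; limma adjusted p = 0.110) from P4_WT to P21_KO. It was 0.17 ± 0.33 (SE) by genotype, with an interval of -0.59 to 0.93. Without P4_WT replicate 2 the age difference was 0.42. Keratinocytes also express Erbb2, and the 7 measured keratinocyte markers averaged 7.12 and 6.39 in P4_WT against 7.03 to 7.86 on the P21 arrays. The part of these cells in the Erbb2 values was not tested.

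Igf1r, on chromosome 7, had the narrowest range over the arrays of the 6 measured receptor genes, 0.59 log2 units. It read 6.12 and 5.68 in P4_WT, 6.03 on both P21_WT arrays, and 5.66, 6.07, 5.52 and 5.66 in P21_KO in order of replicate. The groups overlapped in all 3 comparisons. The genotype difference was -0.30 ± 0.20 (SE; limma adjusted p = 0.881), with an interval of -0.75 to 0.15.

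The ligand genes gave low values. Kitl, on chromosome 10, read 3.82 and 4.51 in P4_WT, 4.10 and 3.55 in P21_WT, and 3.82, 4.10, 3.51 and 3.20 in P21_KO in order of replicate. The groups overlapped, and the differences of -0.35 ± 0.35 (SE) by age and -0.17 ± 0.30 (SE) by genotype were within the spread. The age difference of Kitl was -0.69 without P4_WT replicate 1 and -0.00 without replicate 2. Edn1, on chromosome 13, read 2.71 and 3.34 in P4_WT, 2.92 and 2.20 in P21_WT, and 2.25 to 2.57 in P21_KO. Its highest value was in P4_WT replicate 2, the array with the highest endothelial markers, whose part in the value was not tested. Its age difference was -0.47 ± 0.29 (SE), and it ranged from -0.83 without P21_WT replicate 1 to -0.16 without P4_WT replicate 2 and -0.11 without P21_WT replicate 2. Edn3, on chromosome 2, read 2.76 to 3.19 over all arrays, with differences of -0.07 ± 0.20 (SE) by age and -0.02 ± 0.17 (SE) by genotype. Edn1 and Edn3 read below the array's median on all 8 arrays, so a change of their transcripts may not be measurable here.

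**Figure D3:**
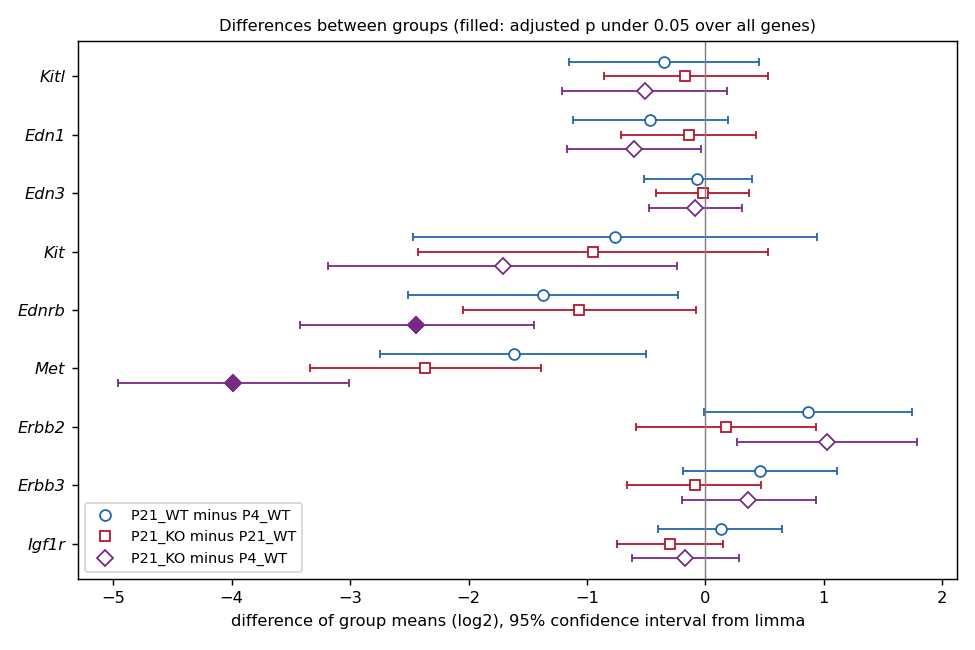
Difference of group means on the log2 scale for each gene and comparison (horizontal axis), with 95% confidence intervals from limma, and filled symbols for an adjusted p under 0.05. Met and Ednrb are filled in P21_KO minus P4_WT, and no gene is filled in the other comparisons.

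The age comparison sets stem cells of the older skin against melanoblasts of the same genotype. Of the 9 genes, limma called 0, where it called 1.61% of all genes. At an unadjusted p under 0.05 there were 2, Met and Ednrb, both lower in P21_WT, against 7.46% of all genes lower at that p. The arrays did not overlap for 5 of 9 genes (Met, Ednrb and Kit lower, Erbb2 and Erbb3 higher), close to the 43.5% among all genes.

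The genotype comparison sets stem cells of the B-raf and C-raf knockout against wild-type stem cells of the same age. Limma called 0 of the 9 genes and 0.0% of all genes. At an unadjusted p under 0.05 there were again 2, Met and Ednrb, against 6.52% of all genes. The same 2 genes were lower without overlap, as were 7.64% of all genes. The sign of the difference was negative for 8 of 9, all except Erbb2, where 48.6% of all genes were lower, but 6 of those 8 intervals included 0. Between P21_KO and P4_WT the arrays did not overlap for 5 of 9 genes (Met, Ednrb, Kit and Edn1 lower, Erbb2 higher), against 29.6% of all genes. The comparisons share arrays, so they do not support each other.

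The order of the group means was P4_WT, P21_WT, P21_KO from high to low for Met, Ednrb, Kit, Kitl, Edn1 and Edn3, and neighbouring groups did not overlap only for Met and Ednrb, and for P4_WT and P21_WT of Kit. For Erbb2 the order was P21_KO, P21_WT, P4_WT, with the first pair overlapping. Erbb3 was highest in P21_WT, then P21_KO and P4_WT, and Igf1r highest in P21_WT, then P4_WT and P21_KO, with overlap of neighbours in each.

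Genes with like patterns were sought among 17244 named genes by Pearson's correlation over the 8 arrays, which share the 3 groups. For Ednrb these were St3gal6 (0.987), Tyrp1 (0.986), Mmp16 (0.985), Nlk (0.985) and Ubl3 (0.983). Tyrp1 encodes a melanosome enzyme. It read 10.48 and 10.29 in P4_WT and 9.38, 8.84, 8.49 and 8.35 in P21_KO in order of replicate, and ordered the 8 arrays as Ednrb did. For Kit they were Supt16 (0.989), Txndc17 (0.986), Mindy2 (0.986), Wwp1 (0.986) and Prpf8 (0.974). Each of these 5 had its lowest value on P21_KO replicate 4 (Supt16 5.49, Prpf8 6.44). Without that array their correlation with Kit was 0.909 to 0.968 over 7 arrays. For Erbb3 they were Ppp1r14d (0.967), Synj1 (0.962), Phf2 (0.959), Ctnnd1 (0.958) and Rnaseh1 (0.951). For Kitl they were Arfgef2 (0.973), Limk1 (0.966), Helz (0.964), Trp53i11 (0.956) and Patz1 (0.952). Met was added after its values were seen, and the nearest genes were Bnc2 (0.990), Cyria (0.987), Afdn (0.983), Eng (0.983) and Tyr (0.982), the gene of tyrosinase. Among the members, Met and Ednrb correlated at 0.952, Kit and Ednrb at 0.909 (0.925 without P21_KO replicate 4), and Erbb3 and Ednrb at -0.156 (-0.624 without that array).

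The wider pathway was read from 6 lists, also chosen with earlier results known. They held 109 genes, of which 101 were measured. By age limma called 2 of them (1.98%, against 1.61% of all genes), 1 in each direction, and by genotype 0. Between P21_KO and P4_WT it called 15 (14.9%, against 7.73% of all genes), 10 higher and 5 lower, whereas both members called there were lower. The median difference was -0.02, -0.05 and -0.05 in these comparisons, against 0.00, 0.01 and 0.02 over all genes. Dim genes lower the share called over all genes. With them left out, limma called 1831 of fewer genes between P21_KO and P4_WT, against 1715 of 22180. The share of list genes without the dim ones was not taken.

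Among 14 other ligands, Hbegf, the gene of an EGF family ligand, rose by 2.48 ± 0.33 (SE) from P4_WT to P21_KO (limma adjusted p = 0.0039), with means of 6.18, 7.82 and 8.66 in P4_WT, P21_WT and P21_KO. It was the 1 called ligand. Its differences of 1.63 by age (limma adjusted p = 0.0873) and 0.84 by genotype did not pass. Epgn (0.57 by age) and Ereg (0.37 by genotype) followed it in order of p. Among 10 related receptors and processing genes, Igf2r, a scavenging receptor for IGF2, fell by 1.67 ± 0.33 (SE) from P4_WT to P21_KO, the 1 call in that list. Its means were 6.27, 5.27 and 4.60 in P4_WT, P21_WT and P21_KO. Mst1r, the gene of the receptor most related to Met, was at 0.47 by age and -0.49 by genotype (limma adjusted p = 0.418 and 0.712). Its difference from P4_WT to P21_KO was -0.02. The Mst1r means of 3.09, 3.56 and 3.07 in P4_WT, P21_WT and P21_KO lay near the arrays' medians of 3.34 to 3.40.

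Of 6 IGF binding protein genes, limma called 2 lower in P21_KO than in P4_WT, Igfbp4 by 1.74 ± 0.17 (SE) and Igfbp7 by 1.36 ± 0.28 (SE). By sign alone, 3 were lower and 3 higher. Igfbp4 was at -0.95 by age (limma adjusted p = 0.0574) and -0.78 by genotype, and Igfbp5 at 0.82 by genotype. Of 25 measured adaptor and relay genes, limma called 3 higher and 1 lower between P21_KO and P4_WT. By sign alone, 15 were lower and 10 higher. Plcb1, a phospholipase gene downstream of Gq-coupled receptors, rose by 1.69 ± 0.23 (SE), the docking protein genes Gab1 by 0.93 and Irs2 by 1.23, and Plcg1, a phospholipase gene downstream of receptor kinases, fell by 1.29 ± 0.28 (SE). None of the 25 was called by age or by genotype.

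Among 13 brakes on receptor signalling, Grb10, an adaptor gene that restrains insulin and IGF receptors, fell by 1.70 ± 0.25 (SE) from P4_WT to P21_WT (limma adjusted p = 0.0165). Errfi1, which encodes an inhibitor of ERBB kinases, rose by 1.34 ± 0.21 (SE) by age (limma adjusted p = 0.0216). From P4_WT to P21_KO Grb10 fell by 1.92, Errfi1 rose by 1.22 and Socs3, an inhibitor of cytokine signalling, rose by 0.82. By genotype Cbl, a ubiquitin ligase gene for active receptors, was at 0.70 and Socs6 at -0.57, neither past the threshold. Of 33 other receptor tyrosine kinases, 0 were called by age or by genotype. From P4_WT to P21_KO 4 rose and 0 fell past the threshold, Musk (1.61), Mertk (2.12), Ddr1 (1.02) and Fgfr1 (0.79). By genotype Ntrk3 (-0.87) and Mertk (1.18) had the smallest p in this list, with limma adjusted p of 0.329 and 0.565, and by age Musk (1.11) and Ntrk3 (0.76).

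**Figure D4:**
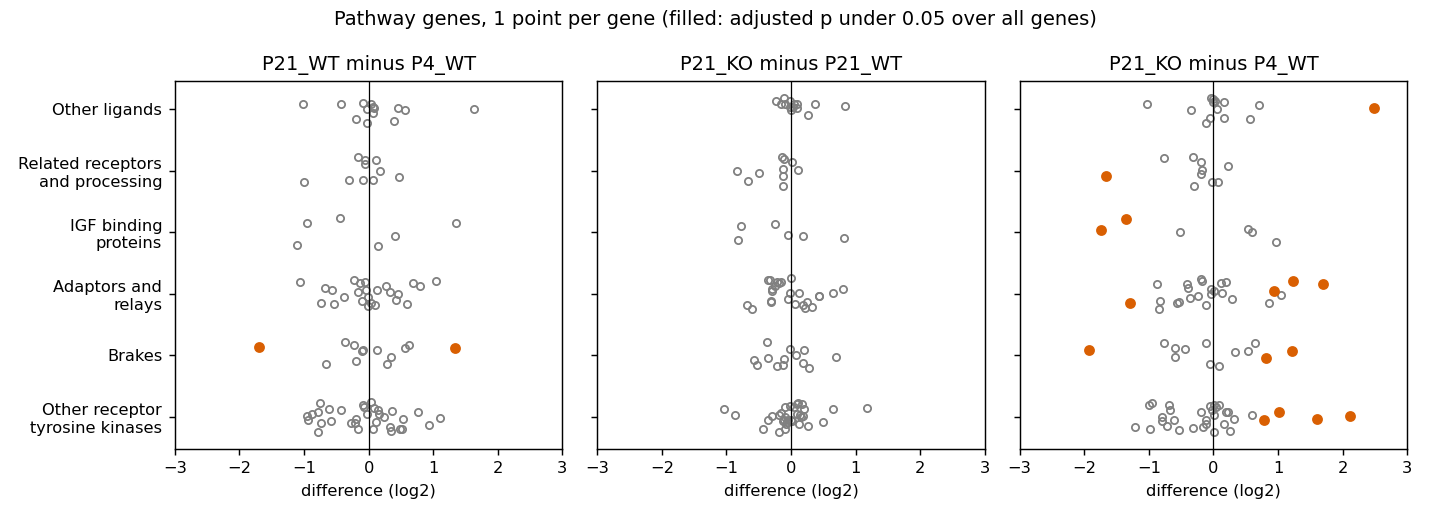
Difference of group means on the log2 scale (horizontal axis) for 101 pathway genes in 6 lists, 1 point per gene, in 3 panels for the comparisons. Filled points passed an adjusted p under 0.05, and the right panel holds 10 to the right of 0 and 5 to the left.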

How the data were processed

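The authors deposited log2 values from RMA, run in Affymetrix Expression Console according to the submitters' processing notes, with no version stated in the labels. RMA corrects background, equalises the distributions of the arrays and combines probes into a value per probe set, which compresses low values. Probe sets were named through the platform annotation, and only those with 1 gene symbol were used, the one with the highest mean per gene. Each of the 9 measured members had 1 probe set.

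A model of the 3 groups was fitted to all 8 arrays and 22180 genes by lmFit and eBayes of limma 3.58.1 in R 4.3.3, with 5 residual degrees of freedom. P-values are two-sided and adjusted by Benjamini-Hochberg over all genes, and genes were called at an adjusted p under 0.05. The script was tested on simulated data. From each list the called genes were named, at most 6 per comparison, or otherwise the 2 with the smallest p. Of the likeness search, 5 genes were named for each of Kit, Ednrb, Erbb3 and Kitl, skipping unnamed gene models, olfactory and immune receptor genes and small RNAs. The members and lists were chosen with earlier results of these data known. Alternatives covered the arrays fitted, prior, weights, normalization, dim genes, probe sets, blocks, threshold and each array left out. Promoter sequences are from RefSeq, and their motifs were chosen after the values were seen.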

Additional observations from a re-analysis of the deposited data

How the results depend on the processing

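Over 17 alternative fits, or 16 for Edn1 and Edn3, which the filter on dim genes removes, 0 members were called by age or by genotype. Met stayed called between P21_KO and P4_WT in all 17 (-4.27 to -3.33) and Ednrb in 15 (-2.71 to -1.85). Not all of these fits are separate checks. Averaging probe sets left the values of the members unchanged, since each had 1 probe set. By genotype, the fit to the 2 groups alone and those without a P4_WT array are the same fit. The same holds between P21_KO and P4_WT for the fits without a P21_WT array. Members called there numbered 1 to 2 with each array left out. Genes called by age numbered 49 with the 2 groups alone, 45 with the replicate block, 674 at an adjusted p under 0.10 and 119 to 338 with each array left out (121 without P21_WT replicate 1, 119 without replicate 2, 233 without P21_KO replicate 3). Genes called by genotype numbered 0 to 15 with each array left out (2 without P21_WT replicate 1, 15 without replicate 2, 1 without P21_KO replicate 1). Between P21_KO and P4_WT they numbered 463 with the replicate block and 921 to 1529 with each array left out (990 without P4_WT replicate 1, 921 without replicate 2). Arrays with the same replicate number in different groups did not deviate together (correlations -0.0372 to 0.00573). In a group of 2 arrays the deviations mirror each other, so this check is weak and cannot exclude pairing. That check does not cover the label number shared by 3 P21_KO arrays. Fitted as a random block, it changed no call of a member. The correlation within blocks, 1 value for all genes, was 0.0361, so that fit lay close to the main one. It cannot show that these arrays are independent. With the replicate block the genotype difference was 0.14 for Kitl, 0.03 for Edn3 and 0.17 for Erbb3, turned in sign, and -0.48 for Ednrb, -0.23 for Kit and -1.70 for Met, and it uses only P21_KO replicates 1 and 2. Signs also turned with an array left out for differences near 0. These ranged from -0.23 to 0.09 for Edn3 and -0.09 to 0.34 for Igf1r by age. By genotype they ranged from -0.44 to 0.11 for Kitl, -0.50 to 0.22 for Edn1, -0.18 to 0.14 for Edn3 and -0.20 to 0.05 for Erbb3. Between P21_KO and P4_WT they ranged from -0.18 to 0.01 for Edn3 and -0.39 to 0.04 for Igf1r. Beyond fewer arrays, the cause of these changes was not tested. Genes near the arrays' median limit what can be measured.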
